A study of Mus musculus with 10 samples.

Results

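The Src family kinases and their regulator were followed in mouse embryonic stem cells (mESCs) that lack a subunit of MiDAC, the mitotic deacetylase complex, a histone deacetylase complex scaffolded by DNTTIP1 and ELMSAN1. The members were set by name as *Src*, *Yes1*, *Fyn*, *Lyn*, *Lck*, *Fgr*, *Blk* and *Csk*, and all 8 were found once among the 34591 genes of the deposited table. RNA-seq covered 10 libraries, 2 for each of 5 lines. The lines were WT, D2A7 and D1E6 (clones with a *Dnttip1* KO), and E2E8 and E2G7 (clones with an *Elmsan1* KO). All lines derive from the male C57/BL6 line Bruce-4 and share the 2iL culture, in which a GSK3β inhibitor, a MEK inhibitor and the cytokine LIF hold the cells in a naive state. Each clone grew from a single cell sorted after transfection with Cas9 and a guide RNA, and WT cells are not described as cloned. The study calls the libraries of a line biological replicates, and whether they came from separate cultures is not given in the sources used here. The p-values measure the spread between these libraries. In comparisons of a knockout, the 4 libraries of its 2 clones entered the main fits as separate replicates of the knockout. Libraries of a line are alike (estimated correlation 0.704 to 0.856), and fits that allow for this called fewer genes.

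Depth ranged from 30182388 to 84291852 fragments per library. The WT libraries were the shallowest, at 30182388 and 36859630 fragments, beside 47058216 or more in the KO libraries. Depth thus goes with WT in every comparison with WT, and its part in the values was not tested. *Dnttip1* was at 8.35 and 8.45 FPKM in WT and from 2.58 to 4.57 FPKM in its KO clones. *Elmsan1*, listed as *C130039O16Rik*, was at 5.34 and 5.73 FPKM in WT and from 4.62 to 5.13 FPKM in its KO clones, so its RNA level is a weak check of those labels. All 9 markers of naive mESCs (*Pou5f1*, *Nanog* and others) were at 1 FPKM or more in every library. Their sum was between 1314.6 and 1367.5 FPKM in WT and between 1087.2 and 1284.9 FPKM in the KO libraries. By the rule given below, 0 were called in either knockout, although 6 (*Dnttip1* KO) and 5 (*Elmsan1* KO) had an unadjusted p under 0.05 from limma. In D2A7 *Zfp42* was called higher than in WT (log2 fold change 0.63) and *Dppa3* lower (-0.70). Summed markers of fibroblasts were at 0.906 and 0.926 FPKM in D2A7 and between 0.198 and 0.333 FPKM in the other lines. Those of primitive endoderm were at 1.44 and 1.55 FPKM in D2A7 and between 0.684 and 1.14 FPKM elsewhere.

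Src family kinases are membrane-anchored tyrosine kinases without a receptor domain of their own. They are held inactive when a tyrosine in the C-terminal tail is phosphorylated and folds back onto the SH2 domain, and CSK, the C-terminal Src kinase, places that phosphate. SRC, YES1 and FYN are found in most tissues, whereas LYN, LCK, FGR and BLK are best known from blood cells. In mESCs, YES1 is activated downstream of LIF and acts on the transcription regulator YAP, and in neurons FYN and SRC relay signals from guidance and adhesion receptors. The libraries measured RNA only, so neither protein nor kinase activity is known here.

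The tail that CSK acts on is what the family shares and CSK lacks. The last 14 codons of the longest coding transcript of each member, before the stop codon, are shown from the reference genome (NCBIM37 with GENCODE vM1), with the last tyrosine codon in capitals where it lies inside them.
Src: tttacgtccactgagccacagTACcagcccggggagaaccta
Yes1: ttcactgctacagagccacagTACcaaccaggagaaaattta
Fyn: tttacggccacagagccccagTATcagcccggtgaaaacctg
Fgr: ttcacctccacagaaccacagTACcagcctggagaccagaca
Lyn: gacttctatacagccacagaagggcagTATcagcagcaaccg
Lck: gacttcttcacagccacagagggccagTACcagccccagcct
Blk: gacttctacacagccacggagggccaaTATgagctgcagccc
Csk: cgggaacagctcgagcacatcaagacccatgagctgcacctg
The tyrosine codon is followed by 6 codons in *Src*, *Yes1*, *Fyn* and *Fgr* and by 4 codons in *Lyn*, *Lck* and *Blk*. The last tyrosine codon of *Csk* lies 34 codons before its end, outside the stretch shown. Although the tails are alike, no member shared a run of 50 bases of its coding transcripts with a coding transcript of another gene, read in the same direction. Pseudogenes, non-coding genes and the opposite strand were not searched.

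Levels are FPKM, fragments scaled for exon length and library size, after scaling each library by its median ratio to the others. In every one of the 10 libraries the order was *Yes1*, *Src*, *Csk*, *Lck*, *Fyn*, *Lyn*, *Fgr* and *Blk*. Neighbours in this order had library values that did not overlap within a line, apart from *Src* and *Csk* in E2G7 and *Lyn* and *Fgr* in D1E6. *Yes1* made up between 54.2% and 69.3% of the summed FPKM of the family without *Csk*, and *Src* between 18.6% and 24.7%. *Lck*, best known for T cell receptor signalling, was the family's next most abundant member, with 6.07% to 14.5% of the sum. *Fyn*, *Lyn* and *Fgr* each stayed under 6% of it.

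**Figure D1:**
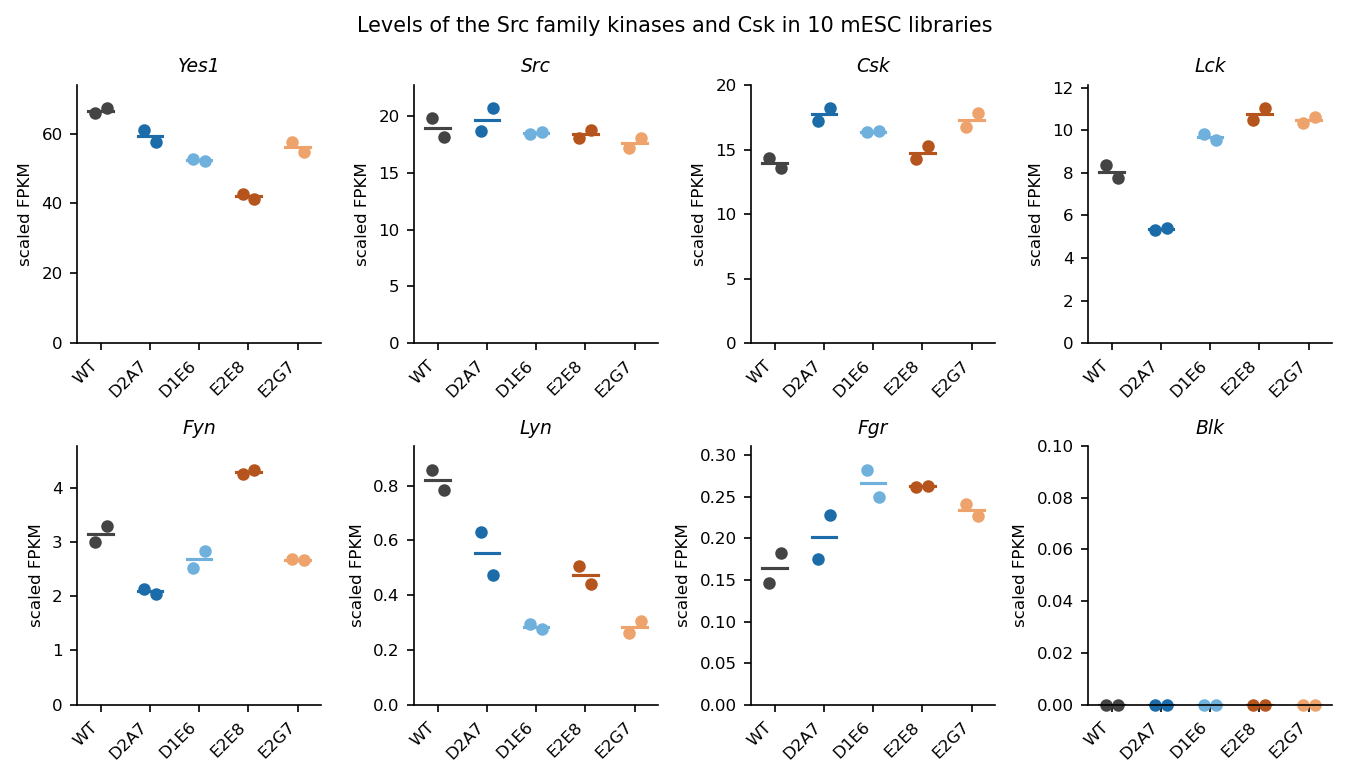
Scaled FPKM (vertical axes, linear, from 0) of the 8 genes in WT and the 4 KO clones. Each point is a library and each bar the mean of the 2 libraries of a line. *Yes1* and *Lyn* are below both WT libraries in all 8 KO libraries, and *Lck* is lowest in D2A7.

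Summed over the family without *Csk*, the level was 98.0 and 97.4 FPKM in WT. It was 87.9 and 86.3 FPKM in D2A7, 84.1 and 83.5 FPKM in D1E6, 76.3 and 76.1 FPKM in E2E8, and 88.2 and 86.5 FPKM in E2G7. Every KO library thus had a lower summed level than both WT libraries, and E2E8 the lowest. As *Yes1* dominates the sum, this largely repeats its values. The ratio of *Csk* to the summed family was 0.147 and 0.140 in WT and from 0.187 to 0.211 in the KO libraries, without overlap. These are descriptions of summed levels and were not tested, and no like ratio was computed for other genes.

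**Figure D2:**
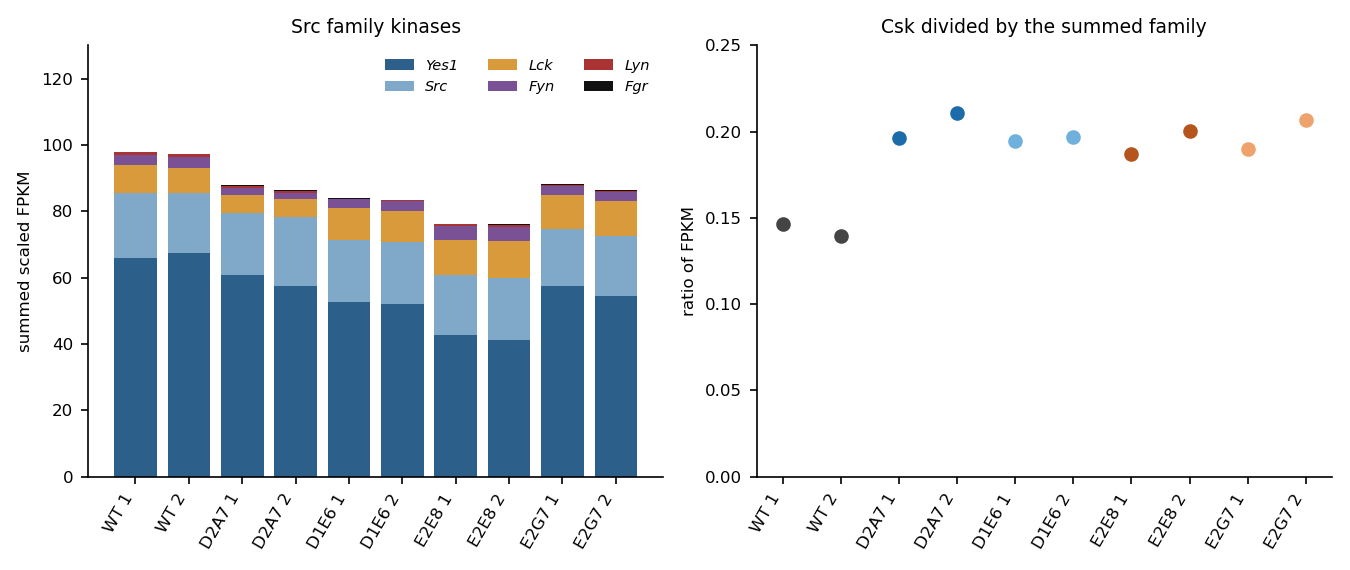
Left, summed scaled FPKM of the Src family kinases without *Csk* in each library (stacked bars from 0, 1 colour per gene). Right, *Csk* FPKM divided by that sum (axis from 0), from 0.140 and 0.147 in WT to between 0.187 and 0.211 in the KO libraries.

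The rule for a DEG (differentially expressed gene) followed the study in combining fold and unadjusted p. Genes were called when limma on log2(FPKM + 0.1) gave 1.5-fold or more with p under 0.01 before adjustment. Log2 fold changes on this scale understate changes of low genes. *Blk*, at 0 everywhere, did not pass the filter of 0.1 FPKM in 2 libraries, and the other 7 members were tested in every comparison. In *Dnttip1* KO versus WT mESCs, none of the 7 was called, where 6.51% of 17434 genes tested were. Of the 7, 4 had an unadjusted p under 0.05, and voom on recovered fragments called 0 as well. In *Elmsan1* KO versus WT mESCs only *Lyn* was called, lower, beside 3.68% of all 17212 genes tested called lower and 6.43% called in either direction. Between the knockouts none of the 7 was called by limma (2 with an unadjusted p under 0.05, 0 by voom), where 1.52% of genes were. The median log2 fold change of the tested members was -0.16 in *Dnttip1* KO and 0.10 in *Elmsan1* KO mESCs, beside 0.02 and 0.0030 over all genes tested. The comparisons with WT share the 2 WT libraries. RNA of many cells was pooled in each library, so that fewer cells expressing a gene and less RNA per cell cannot be told apart.

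*Yes1* (ENSMUSG00000014932, chromosome 5 from 32913606 to 32989430 of NCBIM37, + strand) encodes the kinase that links LIF to YAP in mESCs. Its levels were 65.8 and 67.3 FPKM in WT, 60.9 and 57.5 FPKM in D2A7, 52.8 and 52.0 FPKM in D1E6, 42.7 and 41.3 FPKM in E2E8, and 57.5 and 54.6 FPKM in E2G7. All 8 KO libraries were below both WT libraries, as were those of 12.8% of all genes, and the E2E8 libraries were lowest. In *Dnttip1* KO mESCs the log2 fold change from WT was -0.26 (limma, SE 0.0753, adjusted p = 0.0887), and in *Elmsan1* KO mESCs -0.46 (limma, SE 0.150, adjusted p = 0.109). Neither reached the fold or the p of the rule. Taken clone by clone in a single fit over all lines, *Yes1* fell by 0.66 on the log2 scale (limma, SE 0.0386, adjusted p = 8.5e-06) in E2E8, past the rule. In the other clones it ranged from -0.34 in D1E6 to -0.17 in D2A7, each with an adjusted p under 0.05 from limma. In these fits that threshold was passed by 52% of all genes in D2A7, 43.9% in D1E6, 55.2% in E2E8 and 41.8% in E2G7. E2E8 and E2G7 differed by -0.42 (adjusted p = 0.00012 from limma), below the 1.5-fold threshold.

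*Lyn* (ENSMUSG00000042228, chromosome 4 from 3605262 to 3740269, + strand) encodes a kinase best known from B cells and myeloid cells. It was a low gene here, read from 58 to 160 fragments per library. Its levels were 0.859 and 0.783 FPKM in WT, 0.632 and 0.475 FPKM in D2A7, 0.294 and 0.276 FPKM in D1E6, 0.506 and 0.442 FPKM in E2E8, and 0.262 and 0.307 FPKM in E2G7. Again all 8 KO libraries were below both WT libraries, as were those of 12.8% of all genes, and 1 clone of each knockout (D1E6 and E2G7) was lower than the other. In *Elmsan1* KO mESCs *Lyn* fell by 0.97 on the log2 scale (SE 0.251, unadjusted p = 0.0073 and adjusted p = 0.0601 from limma). This call was lost in a fit with the estimated correlation within clones, at an adjusted p of 0.36 from limma, and on leaving out either WT library (unadjusted p = 0.0487 and 0.0319 from limma), E2E8 replicate 2 (0.0101) or either E2G7 library (0.0123 and 0.0180). In *Dnttip1* KO mESCs the log2 fold change was -0.88 (SE 0.308, adjusted p = 0.132 from limma), not called, although it was called (unadjusted p = 0.00696) without D2A7 replicate 1.

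By clone, *Lyn* fell past the rule in D1E6 (log2 fold change -1.26, adjusted p = 0.00039 from limma), E2E8 (-0.68, adjusted p = 0.0057) and E2G7 (-1.26, adjusted p = 0.00041). In D2A7 it was at -0.50 (adjusted p = 0.0229 from limma). The call in E2E8 was lost without WT replicate 1 (unadjusted p = 0.0139 from limma) or without E2E8 replicate 2 (0.0165). D2A7 was higher than D1E6 by 0.75 (adjusted p = 0.0045 from limma), a call lost without D2A7 replicate 1 (0.58, under 1.5-fold). The knockouts themselves differed by 0.09 (95% interval from -0.52 to 0.70). On the opposite strand, the gene *Gm17726* covers 6.09% of the exon bases of *Lyn*. *Gm17726* was at 0.0299 FPKM or less in every library, and the strand setting of the read counting is not given in the sources used here.

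**Figure D3:**
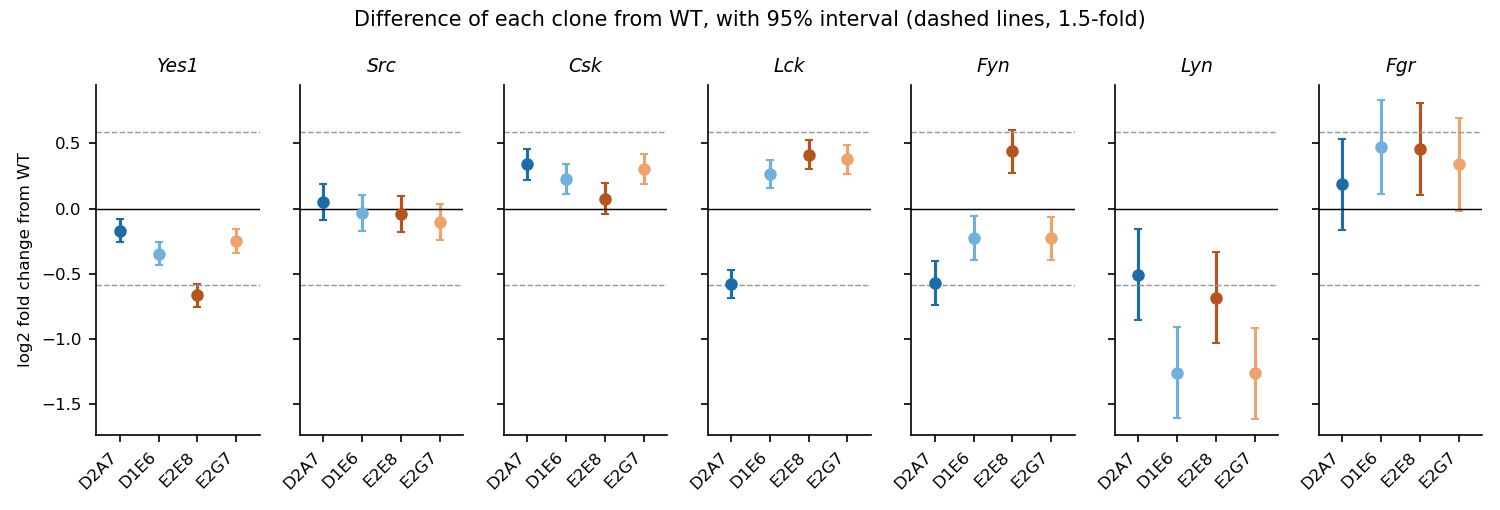
Log2 fold change of each KO clone from WT for the 7 members tested (points, with 95% intervals from a single limma fit over all 10 libraries). The solid line is no difference and the dashed lines are 1.5-fold. *Lyn* is beyond the lower dashed line in D1E6, E2E8 and E2G7, *Yes1* in E2E8 alone, and *Lck* and *Fyn* lie on opposite sides of 0 in different clones.

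*Lck* (ENSMUSG00000000409, chromosome 4 from 129225588 to 129250885, - strand) encodes the kinase that starts T cell receptor signalling. Its levels were 8.38 and 7.74 FPKM in WT, 5.34 and 5.39 FPKM in D2A7, 9.83 and 9.55 FPKM in D1E6, 10.5 and 11.0 FPKM in E2E8, and 10.4 and 10.6 FPKM in E2G7. The D2A7 libraries were thus below WT and the other 6 KO libraries above it. *Elmsan1* KO mESCs had 0.39 more than WT on the log2 scale (limma, SE 0.0637, adjusted p = 0.0161), smaller than 1.5-fold, with 4 of 4 libraries above WT, as were those of 21.3% of genes. It was the only member with an adjusted p under 0.05 there, beside 10.5% of genes. This adjusted p was 0.0369 to 0.142 on leaving out single libraries, 0.272 with an estimated correlation within clones and 0.338 with all 10 libraries in 1 fit. In *Dnttip1* KO mESCs the clones pulled apart, so that the joint value of -0.16 (limma, SE 0.300, adjusted p = 0.774) describes neither. D2A7 was at -0.58 (adjusted p = 4.4e-05 from limma) and D1E6 at 0.26 (adjusted p = 0.0029), and the difference between them, -0.84 (SE 0.0469, adjusted p = 8.4e-06 from limma), passed the rule. The knockouts differed by -0.55 (95% interval from -1.03 to -0.08, adjusted p = 0.296 from limma), and this passed the rule of 1.5-fold and p under 0.01 before adjustment without D1E6 replicate 1 (-0.70, adjusted p = 0.201) or D1E6 replicate 2 (-0.69, adjusted p = 0.228).

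Because *Lck* is a T cell gene, markers of blood cells were set beside it. Of 11 markers, 6 were below 0.1 FPKM in all libraries, and *Ptprc*, which encodes the common leukocyte antigen CD45, reached at most 0.0194 FPKM. *Laptm5* took most of the summed level, at up to 32.4 FPKM. The sum was 33.5 and 33.7 FPKM in WT, highest in D2A7 (43.1 and 43.9 FPKM) and between 23.4 and 28.2 FPKM in the other clones. The T cell genes *Cd3g* and *Cd3e*, for CD3 subunits, were higher in D2A7 than in WT (log2 fold changes of 3.25 and 1.12, adjusted p = 3.8e-06 and 0.00021 from limma), the clone where *Lck* was lowest. *Cd3e* was called lower in *Elmsan1* KO mESCs (-1.23, adjusted p = 0.0464 from limma) and in both of their clones, and *Cd3g* in E2E8 (-1.49, adjusted p = 0.00013), lines where *Lck* was above WT. In D1E6, where *Lck* was also above WT, 0 of the blood cell markers were called lower. There *Sfpi1* was called higher (0.77, adjusted p = 0.0071 from limma), as it was in D2A7 (1.70, adjusted p = 0.00010). The summed fibroblast and primitive endoderm markers were also highest in D2A7, with *Thy1* and *Pdgfrb* called higher there than in WT (1.14 and 1.48, adjusted p = 0.0014 and 0.00051 from limma). Of 8 fibroblast markers, 5 were below 0.1 FPKM in all libraries. The primitive endoderm markers were split in D2A7, with *Gata4* called higher than in WT (0.78, adjusted p = 0.00042 from limma) and *Sox7* lower (-0.87, adjusted p = 0.0044). The part of these markers in the values of *Lck* was not tested.

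*Fyn* (ENSMUSG00000019843, chromosome 10 from 39088661 to 39285187, + strand) encodes the kinase downstream of NCAM1 and of the netrin receptor DCC in neurons. Its levels were 3.00 and 3.29 FPKM in WT, 2.13 and 2.04 FPKM in D2A7, 2.53 and 2.84 FPKM in D1E6, 4.25 and 4.33 FPKM in E2E8, and 2.68 and 2.66 FPKM in E2G7. E2E8 was above WT and the other 6 KO libraries below it. Its log2 fold change was -0.40 in *Dnttip1* KO mESCs (limma, SE 0.153, adjusted p = 0.162). The value of 0.10 in *Elmsan1* KO mESCs (limma, SE 0.243, adjusted p = 0.816) joins unlike clones, and its sign turned on leaving out either E2E8 library, to -0.0025 and -0.01. E2E8 exceeded E2G7 by 0.67 (SE 0.0713, adjusted p = 0.00022 from limma), a difference that passed the rule. D2A7 was at -0.57 from WT (adjusted p = 0.00041 from limma), just under 1.5-fold.

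*Src* (ENSMUSG00000027646, chromosome 2 from 157244180 to 157297598, + strand), the founding member of the family, varied least. Its levels were 19.8 and 18.1 FPKM in WT and between 17.2 and 20.7 FPKM in the KO libraries, with overlap. The log2 fold change was 0.01 (95% interval from -0.16 to 0.18) in *Dnttip1* KO and -0.07 (95% interval from -0.22 to 0.08) in *Elmsan1* KO mESCs, and the intervals in all 4 clones lay within 1.5-fold of WT.

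*Fgr* (ENSMUSG00000028874, chromosome 4 from 132530010 to 132557825, + strand), a kinase of myeloid cells, was read from 17 to 77 fragments per library. The WT libraries had 17 and 27 fragments and the KO libraries from 42 to 77. It was at 0.147 and 0.183 FPKM in WT and from 0.175 to 0.283 FPKM in the KO libraries. All 4 *Elmsan1* KO libraries were above both WT libraries, as were those of 21.3% of genes. Of the *Dnttip1* KO libraries 3 of 4 were, a pattern whose share over all genes was not computed. For 21.1% of genes all 4 *Dnttip1* KO libraries were above both WT libraries. The log2 fold changes of 0.33 (95% interval from -0.18 to 0.83) in *Dnttip1* KO and 0.40 (95% interval from -0.02 to 0.81) in *Elmsan1* KO mESCs were not past the rule, and the intervals reach beyond 1.5-fold higher.

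*Blk* (ENSMUSG00000014453, chromosome 14 from 63991674 to 64036024, - strand), a kinase of B cells, had 0 fragments in each of the 10 libraries. A count of 0 allows up to 3 fragments, or between 0.0140 and 0.0404 FPKM depending on the library, counting error only. Of 22056 protein-coding genes, 16.1% were likewise at 0 in every library.

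*Csk* (ENSMUSG00000032312, chromosome 9 from 57474454 to 57493460, - strand) encodes the kinase that restrains the others. Its levels were 14.4 and 13.6 FPKM in WT, 17.2 and 18.2 FPKM in D2A7, 16.4 and 16.4 FPKM in D1E6, 14.3 and 15.2 FPKM in E2E8, and 16.8 and 17.9 FPKM in E2G7. All 4 *Dnttip1* KO libraries were above both WT libraries, as were those of 21.1% of genes. Of the *Elmsan1* KO libraries all except the first of E2E8 were, a pattern whose share over all genes was not computed. In *Dnttip1* KO mESCs the log2 fold change was 0.28 (SE 0.0646, adjusted p = 0.0482 from limma), under 1.5-fold, and its adjusted p was 0.0757 to 0.271 on leaving out single libraries and 0.332 with the estimated correlation within clones. It was the only member with an adjusted p under 0.05 in that comparison, where 9.47% of all genes had one. In *Elmsan1* KO mESCs the log2 fold change was 0.19 (SE 0.0987, adjusted p = 0.265 from limma). By clone it ranged from 0.08 in E2E8 to 0.34 in D2A7, and the adjusted p was under 0.05 in each clone other than E2E8.

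Counted over clones, the rule called 0 of the 7 members in D2A7, where 17.1% of genes were called, 1 in D1E6 (11.7%), 2 in E2E8 (17%) and 1 in E2G7 (10.7%). All were lower, a direction in which 6.34%, 6.24% and 6.86% of genes were called in D1E6, E2E8 and E2G7. In D2A7, 5 members had an unadjusted p under 0.05 in limma and voom called 2. Between the clones of a knockout, 2 were called in D2A7 versus D1E6 (*Lyn* and *Lck*, beside 13.8% of genes) and 1 in E2E8 versus E2G7 (*Fyn*, beside 13.2%). With 7 genes these counts do not stand apart from those shares. *Lyn* was called lower in 3 of the 4 clones. The clone comparisons share the WT libraries and a single fit, so such calls are not independent. The share of all genes called in several clones was not computed, here or for the genes below.

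The start sites of *Yes1* and *Lck* are shown because the levels of these genes are far apart and *Lck* has 2 annotated starts far apart, a distal and a proximal one. Each window holds the 200 bases upstream of an annotated start in NCBIM37, read along the gene's strand. Capitals mark the letters searched on both strands, CCGGAAG (1 form of the ETS site) and GGGCGG (the GC box), which do not overlap each other here. Other forms of the ETS site were not searched, so their absence from a window is not shown.
Yes1, + strand of chr5:32913406-32913605: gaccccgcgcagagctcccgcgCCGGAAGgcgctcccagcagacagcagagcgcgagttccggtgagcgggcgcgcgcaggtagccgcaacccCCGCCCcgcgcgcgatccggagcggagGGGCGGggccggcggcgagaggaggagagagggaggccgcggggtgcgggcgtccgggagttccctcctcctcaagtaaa
Lck distal, - strand of chr4:129250886-129251085: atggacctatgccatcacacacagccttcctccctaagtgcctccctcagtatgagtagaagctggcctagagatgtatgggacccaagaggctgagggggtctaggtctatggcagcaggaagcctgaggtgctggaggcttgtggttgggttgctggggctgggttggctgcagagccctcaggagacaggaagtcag
Lck proximal, - strand of chr4:129235636-129235835: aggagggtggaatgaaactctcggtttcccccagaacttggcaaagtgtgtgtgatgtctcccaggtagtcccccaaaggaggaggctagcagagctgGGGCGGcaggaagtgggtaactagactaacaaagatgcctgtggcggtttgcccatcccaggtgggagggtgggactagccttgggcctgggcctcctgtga
*Yes1* has 30 CpG dinucleotides in this window, more than 96.2% of the 45955 windows of the annotation, whose median is 8. It holds CCGGAAG 1 time, found in 8.14% of windows, and 2 GC boxes, found at least once in 39% of windows. The distal *Lck* start has 0 CpG dinucleotides and neither CCGGAAG nor a GC box, and the proximal start has 3 and 1 GC box. The values are per gene and do not tell which *Lck* start the RNA came from. Windows at annotated starts of *Src* have 33 and 8 CpG dinucleotides and of *Fyn* 16 and 2, and a *Csk* window has 16. Whether these counts go with RNA levels was not tested.

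Other related kinases were read from the same fits. Of 4 (*Frk*, *Srms*, *Ptk6* and the CSK homologue *Matk*), 2 passed the filter. Neither was called in *Dnttip1* KO mESCs by limma (0 with an unadjusted p under 0.05, 0 by voom). In *Elmsan1* KO mESCs 1 was called lower, beside 3.68% of all genes tested. *Frk*, an epithelial kinase, was at 0.486 and 0.495 FPKM in WT, 0.489 and 0.512 FPKM in D2A7, and between 0.115 and 0.176 FPKM in the other clones. It fell by 1.22 on the log2 scale in *Elmsan1* KO mESCs (SE 0.167, adjusted p = 0.0106 from limma). It was called lower in D1E6, E2E8 and E2G7 and not in D2A7, and was higher in D2A7 than in D1E6 by 1.30 (adjusted p = 0.00037 from limma). *Matk* was at 0.723 and 0.842 FPKM in E2E8 and between 0.242 and 0.294 FPKM in the other lines. It was called higher in E2E8 than in WT (1.23, adjusted p = 0.0002 from limma) and than in E2G7 (1.26, adjusted p = 0.00026).

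**Figure D4:**
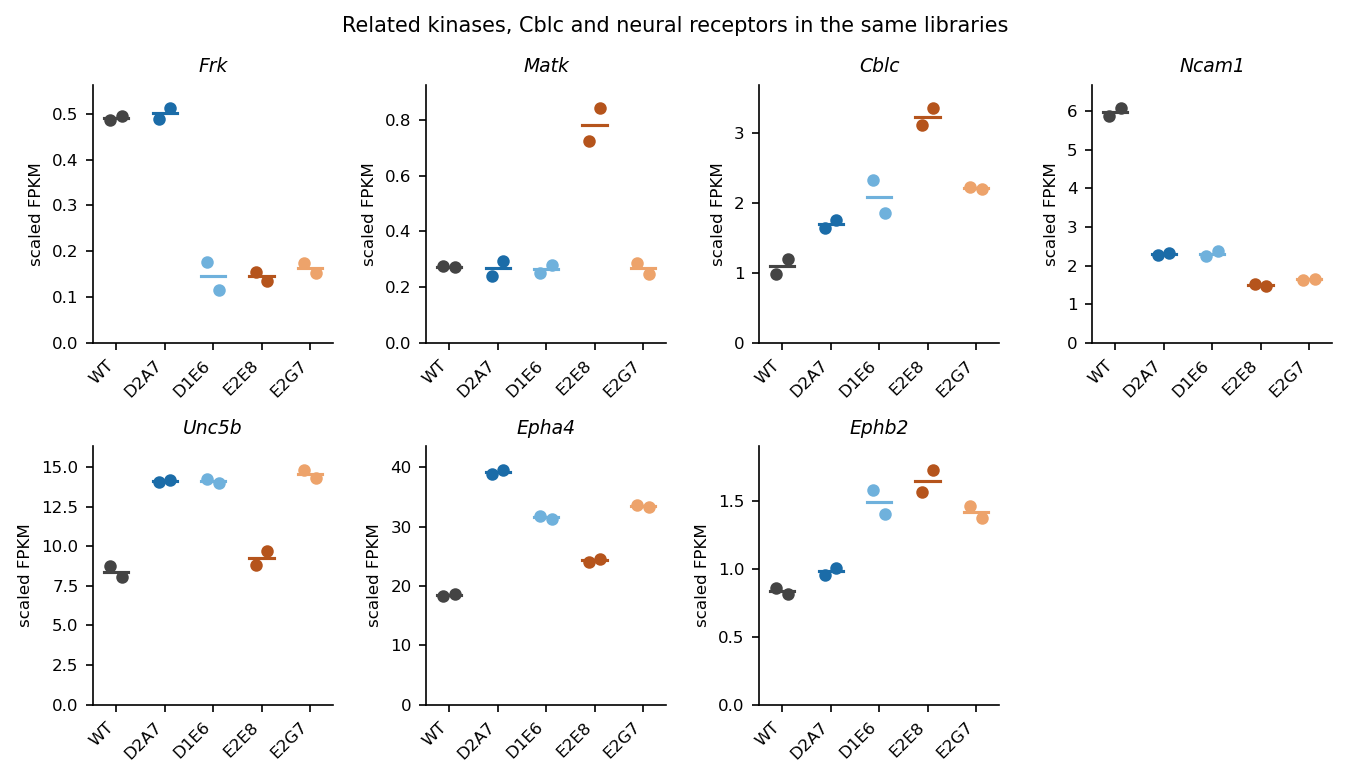
Scaled FPKM (linear axes from 0) of the tested relatives *Frk* and *Matk*, of the ubiquitin ligase gene *Cblc*, and of 4 neural receptors in WT and the KO clones. Points are libraries and bars the means of 2. *Frk* is near WT in D2A7 and low in the other 3 clones, and *Ncam1* is low in all 4.

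Genes around the kinases were taken from lists made for this purpose. Of 11 genes for CSK adaptors and other negative regulators, 9 were tested in *Dnttip1* KO and 8 in *Elmsan1* KO mESCs. Beside 6.51% and 6.43% of all genes called in either direction, 1 of them, the same gene, was called higher in each. This was *Cblc*, which encodes a ubiquitin ligase of the CBL family that acts on active tyrosine kinases. It was at 0.984 and 1.20 FPKM in WT, from 1.65 to 2.32 FPKM in *Dnttip1* KO and from 2.20 to 3.35 FPKM in *Elmsan1* KO libraries. Its log2 fold changes were 0.74 (adjusted p = 0.0493 from limma) and 1.22 (adjusted p = 0.0201), and it was called higher in all 4 clones. These clone calls share the WT libraries, and the share of all genes called so was not computed. Voom on recovered fragments did not call it in *Dnttip1* KO mESCs. *Pag1*, whose product recruits CSK to the membrane, lay between 0.572 and 0.960 FPKM and was higher in D2A7 than in D1E6 by 0.60 (adjusted p = 0.0036 from limma), past the rule. In single clones versus WT, the adaptor gene *Dok2* was called higher in D2A7 (0.66) and lower in E2E8 (-1.45), and the phosphatase gene *Ptpn18* lower in E2G7 (-1.16).

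Of 5 tyrosine phosphatases that activate the kinases, 3 were tested and none was called by limma or voom in either knockout (1 in each with an unadjusted p under 0.05). Among 26 substrates and adaptors 22 were tested, and limma called 0 in either knockout (2 in *Dnttip1* KO and 3 in *Elmsan1* KO mESCs with an unadjusted p under 0.05, while voom called 1 and 0). Taken clone by clone, 1 was called lower and 3 higher in D2A7, beside 17.1% of all genes, and the same numbers in E2E8 (17%). In D1E6 1 was called higher (11.7% of all genes called) and in E2G7 0 (10.7%), with 15 at an unadjusted p under 0.05 there and 1 called by voom. *Zap70*, the kinase that acts after LCK in T cells, was among those higher in D2A7 (0.78, adjusted p = 0.0032 from limma) and E2E8 (0.63, adjusted p = 0.0081). All 8 genes of the LIF receptor and YAP axis were tested and 0 were called in either knockout by limma or voom, with 2 and 5 at an unadjusted p under 0.05. By clone, *Tead4*, which encodes a partner of YAP, was called higher in D1E6 (0.79, adjusted p = 8.2e-06 from limma), beside 0.50 in E2E8 and 0.53 in E2G7, under 1.5-fold, and 0.05 in D2A7. *Lifr* was between 14.8 and 17.5 FPKM and *Yap1* between 16.1 and 19.8 FPKM over the 10 libraries.

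Of 10 neural receptors that signal through the kinases, 7 were tested, and 1 was called lower and 2 higher in each knockout, where 6.51% (*Dnttip1* KO) and 6.43% (*Elmsan1* KO) of all genes tested were called. *Ncam1*, a cell adhesion receptor that acts through FYN, was at 5.87 and 6.08 FPKM in WT, from 2.24 to 2.39 FPKM in *Dnttip1* KO and from 1.48 to 1.66 FPKM in *Elmsan1* KO libraries. It fell by 1.33 (adjusted p = 0.0027 from limma) and by 1.86 (adjusted p = 0.0011) on the log2 scale. *Epha4*, an ephrin receptor, rose by 0.93 (adjusted p = 0.0101 from limma) and by 0.63 (adjusted p = 0.0626). By clone, *Epha4* was called higher in D2A7 (1.09), D1E6 (0.77) and E2G7 (0.85). In E2E8 it was at 0.40, under 1.5-fold, and E2E8 differed from E2G7 by -0.46 (adjusted p = 1.4e-05 from limma). The netrin receptor *Unc5b* rose in *Dnttip1* KO mESCs (0.74, adjusted p = 0.0036 from limma) and the ephrin receptor *Ephb2* in *Elmsan1* KO mESCs (0.80, adjusted p = 0.0187). By clone, *Unc5b* was also called higher in E2G7 (0.79, adjusted p = 3.3e-05 from limma) and was at 0.14 in E2E8, and *Ephb2* was also called higher in D1E6 (0.76, adjusted p = 0.00039) and was at 0.21 in D2A7. Neural markers summed to between 51.5 and 97.5 FPKM, mostly *Tubb3*, and were lowest in E2E8. Of 5, 4 were tested. *Nes*, which encodes the intermediate filament nestin, was called higher in *Dnttip1* KO (1.30, adjusted p = 0.0178 from limma) and *Elmsan1* KO mESCs (0.80, adjusted p = 0.0636), and *Mtap2*, which encodes a microtubule protein of neurons, lower in *Dnttip1* KO mESCs (-1.05, adjusted p = 0.00999). Their part in these values was not tested.

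Genes whose pattern over the 10 libraries was most like that of a called member were listed by Pearson's r of log2(FPKM + 0.1), among genes whose mean reached 1 FPKM. For *Yes1* these were *Dhrs4* (r = 0.993), *Plekhf2* (0.990) and *Set* (0.988). For *Lyn* they were *Ccdc45* (0.987), the pseudogene *Gm11427* (0.981) and *Dpp6* (0.981). With 10 points in 5 pairs of like libraries, these are descriptions.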

How the data were processed

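Stranded total RNA was sequenced from both ends for 10 mESC libraries. Reads were mapped to NCBIM37 and assigned to genes by HT-seq with the GENCODE annotation, for which the methods name release vM20, and the authors deposited FPKM values, the only unit used here. The submitters' processing notes name edgeR 3.16.5, limma and R 3.3.1 for their own tests. The exon lengths and library total behind the deposited FPKM are not stated. GENCODE vM1 exon lengths, which matched 97.2% of the 34591 gene identifiers, turned 98.1% to 98.4% of the low FPKM values (under 100 fragments) into whole fragments within 0.02, which gave the depth. The numbering of clones differs between the labels and the series' design text, so clone names are used.

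Libraries were divided by their median ratio over 11270 genes (factors 0.965 to 1.01). Genes with at least 0.1 FPKM in 2 libraries of a comparison were tested as log2(FPKM + 0.1) by limma (version 3.58.1, under R 4.3.3; moderated two-sided test with a variance trend, Benjamini-Hochberg over all genes tested), 2 WT against 4 KO libraries or 4 against 4. Each clone was also compared in a single fit over the 5 lines. An exact permutation test of 2 against 4 libraries cannot go below p = 0.0667 and was not used. The fits were tested on simulated data. Sequences are from the NCBIM37 genome with GENCODE vM1. Tables and figures were made in Python 3.11.15 with numpy 2.4.6 and matplotlib 3.10.9.

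All 8 members are named, the targeted genes, the genes of the pathway lists called in either knockout versus WT, and the 3 genes most like each member called in a knockout or clone versus WT. Other genes, such as the marker genes, *Matk*, *Zap70*, *Tead4*, *Dok2*, *Ptpn18*, *Pag1*, *Lifr*, *Il6st*, *Tead2*, *Wwtr1* and *Yap1*, were named after their values were seen. The members and lists were chosen with earlier results of these data known. Alternatives were other pseudocounts, filters, scalings and variance models, a replicate block, a correlation within clones, the adjusted p as threshold, all 10 libraries in 1 fit, each library left out, and, added after seeing the data, voom on the recovered fragments. Some items are not reported here.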

Additional observations from a re-analysis of the deposited data

Results flagged for a closer look

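*Lyn* and *Lck* differed between the *Dnttip1* KO clones beyond the spread between libraries of a clone. D2A7 was higher than D1E6 in *Lyn* by 0.75 and differed from it in *Lck* by -0.84 on the log2 scale (adjusted p = 0.0045 and 8.4e-06 from limma). *Fyn* differed between the *Elmsan1* KO clones, with E2E8 above E2G7 by 0.67 (adjusted p = 0.00022 from limma). These are differences between clones of the same knockout.

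*Src* in *Dnttip1* KO mESCs had 1 library apart from the others. D2A7 replicate 2, at 20.7 FPKM, was separated from the next library by 0.896 of the range of the 4. It was the only such library among 14 groups of 4 examined, where chance gives about 1 in 20.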

How the results depend on the processing

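The count of members called in *Elmsan1* KO versus WT mESCs (1, *Lyn*) was 0 with a pseudocount of 1, without a filter, among genes averaging 1 FPKM or more (where *Lyn* is not tested), with an adjusted p under 0.05, with the correlation within clones (0.768) and with all 10 libraries in 1 fit, and from 0 to 1 with single libraries left out. *Lyn* was lower in all 17 alternatives that tested it, which adds no support to the call. Settings that alter only the filter, the variance model or the threshold reuse the same log2 fold change. As all 4 *Elmsan1* KO libraries were below both WT libraries, leaving out a library could not turn the direction. With a block on the replicate number the count was also 0 (*Lyn* unadjusted p = 0.0159, adjusted p = 0.127 from limma), and the block changed no other count of members. Same-numbered libraries did not deviate together (r from -0.139 to 0.192 over 10 pairs, 1 of them over 0.1), so the numbers pair nothing. The count in *Dnttip1* KO versus WT mESCs (0) was 1 with quantile normalization and 0 to 1 with libraries left out, and between the knockouts (0) it was 0 to 1 with libraries left out.

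By clone, the count in D2A7 (0) was 2 with a pseudocount of 0.01, 3 with quantile normalization, 2 with voom and 0 to 2 with libraries left out (1 without either WT library and 2 without D2A7 replicate 1). With a pseudocount of 1, and among genes averaging 1 FPKM or more, it was 0 in D1E6 (1), 1 in E2E8 (2) and 0 in E2G7 (1). In E2E8 it was 1 to 2 with libraries left out. D2A7 versus D1E6 (2) gave 1 with a pseudocount of 1, among genes averaging 1 FPKM or more and with quantile normalization, and 1 to 2 with libraries left out. E2E8 versus E2G7 (1) gave 0 with a pseudocount of 1 and with quantile normalization, and 2 with a pseudocount of 0.01, with FPKM as deposited and with voom.

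Log2 fold changes near 0 turned sign. *Src* in *Dnttip1* KO mESCs was -0.0020 with quantile normalization, and from -0.054 to 0.075 with libraries left out (negative without WT replicate 2, and -0.029 without D2A7 replicate 2). *Fyn* in *Elmsan1* KO mESCs was from -0.011 to 0.217 with libraries left out (negative without E2E8 replicate 2, and -0.0025 without E2E8 replicate 1). Between the knockouts, *Lyn* was -0.00096 with quantile normalization, from -0.093 to 0.227 with libraries left out (negative without D2A7 replicate 1, and -0.034 without E2G7 replicate 1), and *Fgr* was from -0.140 to 0.020 (positive without D2A7 replicate 1). The causes of these changes were not tested. Without a library of WT or of a clone, the one left is assumed to vary like the other libraries. Depth limits *Fgr* and *Lyn*, read from 17 to 77 and 58 to 160 fragments.

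Calls over all genes also moved. In *Dnttip1* KO versus WT mESCs they were 566 lower and 569 higher, beside 255 and 283 with the correlation within clones, 289 and 251 with a pseudocount of 1, 289 and 375 among genes averaging 1 FPKM or more, and 615 and 392 with voom. In *Elmsan1* KO versus WT mESCs they were 634 and 472, beside 253 and 233, 298 and 227, 276 and 327, and 632 and 300. Between the knockouts they were 73 and 195, beside 17 and 37, 19 and 60, 37 and 75, and 65 and 205, and 1 and 3 with an adjusted p under 0.05. Quantile normalization changed the split to 634 and 500, 670 and 557, and 142 and 146 in these comparisons.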
